A study of Homo sapiens with 33 samples.

Results

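The WRAP53 variant pool is a set of designed oligonucleotides, called tiles, whose recovery with FLAG-GFP-CTCF was measured as read counts in the FLAG immunoprecipitate against Input. All rows of its table were used and the counts of each tile were summed over its barcodes, which gave 55 tiles of the 3358 in the series, each carried on 35 numbered barcodes. The class of a tile is the part of its name before its number: ctrl (1 tile), wt (1 tile), single (20 tiles) and stem (33 tiles). The names give no sequence, no position and no description of an alteration, so no sequence is shown. From the names alone, wt_1 is read as the unaltered tile and ctrl_1 as a control. Likewise, single and stem tiles are read as altered ones and the numbers as design order.

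The series delivers pools of oligonucleotides into living cells and asks which RNA stretches are recovered with a chosen protein. Both groups used here came from HEK293T, a human embryonic kidney line, in which FLAG-GFP-CTCF was overexpressed and into which the pool was transfected. The cells were harvested after 48 hours and fixed with 0.1% formaldehyde for 10 minutes. The 3 immunoprecipitate libraries were recovered with FLAG antibody and the 3 Input libraries were not precipitated. The groups include no precipitation with another antibody and no cells without the tagged protein, so recovery with CTCF and recovery in any FLAG precipitation cannot be told apart. The tagged protein was overexpressed, and the labels do not say whether replicates came from separate dishes. The p values therefore speak only of variation among these 6 libraries, part of which may be technical.

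CTCF is a zinc-finger protein best known for binding DNA at chromatin loop anchors and insulators, and it also binds RNA. WRAP53 encodes a WD40-repeat protein that brings telomerase RNA and other small RNAs to Cajal bodies. In an assay of this kind, variants of an RNA are set beside its unaltered form, and the question is whether a variant is recovered more or less than that form.

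The Input libraries held 1510200, 1305043 and 1339255 reads in replicates 1, 2 and 3, and the immunoprecipitates 1216535, 1216203 and 1322546. Each library lacked reads for at most 3 of the 1925 barcodes. Apart from ctrl_1, which was far more abundant, tiles held between 23426 (stem_9) and 129258 (stem_21) reads over the 3 Input libraries. Levels below are CPM, that is counts relative to library size, after scaling by trimmed mean of M values (TMM), which sets the typical tile at no difference between fractions. Every fold change is therefore relative to the typical tile of the pool.

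Under TMM scaling 1 tile, ctrl_1, was strongly reduced in the immunoprecipitate, and 3 altered tiles (single_16, stem_29 and stem_21) were modestly enriched. A few changed by less, and most of the others, wt_1 among them, stayed near their Input level. By the quasi-likelihood test of edgeR with Benjamini-Hochberg adjustment over all 55 tiles, 12 tiles passed at an adjusted p under 0.05, which is 21.8% of those tested: 5 rose (9.09%) and 7 fell (12.7%), of which ctrl_1 also fell and the other 6 were slightly positive and did not pass when library size was the only scaling. With replicate number as a block in the edgeR fit, 4 of the 55 tiles passed: ctrl_1, single_16, stem_29 and stem_21. The other 8 calls then had an edgeR adjusted p of 0.0580 to 0.177. The libraries of both fractions did not overlap in 17 tiles (30.9%), 8 of them higher (14.5%) and 9 lower (16.4%). Among the 53 single and stem tiles, log2 fold changes ran from -0.16 to 0.39, or from 0.893 to 1.31 times Input, and 39 tiles lay within 0.1 of 0. None of these tiles changed by 1 or more on the log2 scale. The median SE of their log2 fold changes was 0.05.

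The control tile held 28.6%, 31.5% and 24.4% of all Input reads in replicates 1, 2 and 3, with Wilson 95% intervals of 28.5% to 28.6%, 31.4% to 31.5% and 24.4% to 24.5%. In the immunoprecipitates ctrl_1 held 15.5% (15.5% to 15.6%), 16.0% (16.0% to 16.1%) and 14.5% (14.4% to 14.5%). These intervals cover counting error only. They treat reads as independent molecules, and whether molecular identifiers were used is not given. The libraries of 1 group differed by more than the width of these intervals. The mean share was 28.2% ± 3.53 in Input and 15.3% ± 0.800 in the immunoprecipitate (SD, n = 3 each). The groups did not overlap, and the difference of -12.8 percentage points had p = 0.1 in a two-sided exact permutation test, the smallest value that 3 libraries against 3 can give.

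After TMM scaling, ctrl_1 was at 309585, 356959 and 250684 CPM in Input and at 142614, 150652 and 132781 CPM in the immunoprecipitate. All 3 immunoprecipitate libraries lay well below all 3 Input libraries. Its log2 fold change was -1.11 ± 0.17 (SE), or 0.464 times Input (edgeR adjusted p = 6.65e-09). The edgeR test shares information on variance across tiles and the permutation test above does not, so their p values are not alike. The spread was larger among the Input libraries than among the precipitates, with Input replicate 2 highest and Input replicate 3 lowest.

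Each of the 35 ctrl_1 barcodes was lower in the immunoprecipitate, and in each the libraries did not overlap between fractions. Among the 1888 barcodes of the other tiles with at least 30 reads over the 6 libraries, 5.93% were lower and 6.57% higher without overlap. The ctrl_1 barcodes' log2 ratios ran from -1.32 to -0.83 with an SD of 0.12, the smallest SD of any tile in the pool, where the others had 0.16 to 0.52. Reads per barcode of ctrl_1 over all 6 libraries ran from 11951 to 99483, while the median for a barcode of any other tile lay between 1420 and 8440. The ctrl_1 ratios thus rested on far more reads. For every read of wt_1 there were 17.2, 19.9 and 14.1 reads of ctrl_1 in Input and 7.90, 8.38 and 7.09 in the immunoprecipitate. This fall relative to wt_1 needs no scaling, but the ratio cannot say which of these tiles changed.

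The unaltered tile by name, wt_1, was at 18016, 17939 and 17778 CPM in Input and at 18052, 17977 and 18724 CPM in the immunoprecipitate. The groups overlapped, with immunoprecipitate replicate 3 somewhat above the rest. Under TMM scaling the log2 fold change was 0.03 ± 0.05 (edgeR adjusted p = 0.745). By library size alone it was 0.25 and passed (edgeR adjusted p = 0.000484). The result for wt_1 thus holds relative to the typical tile and does not say whether wt_1 was recovered with the protein. Of its 35 barcodes, 20 were higher in the immunoprecipitate. The odd-numbered and even-numbered barcodes of wt_1, taken as separate tiles, gave -0.04 ± 0.06 and 0.12 ± 0.06 (SE), neither of which passed. The gap between these sets of barcodes of 1 tile is as large as several of the small differences called between tiles.

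In the single class 1 tile rose, 2 fell and 17 did not pass, a share of 15.0% against 21.8% of the pool. The median log2 fold change of the class was 0.02, against 0.01 over all tiles.

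The tile single_16 had the largest gain of the pool. It was at 6871, 7399 and 6771 CPM in Input and at 8729, 9376 and 9446 CPM in the immunoprecipitate. The lowest precipitate library lay above the highest Input library, and the log2 fold change was 0.39 ± 0.06, or 1.31-fold (edgeR adjusted p = 1.81e-08). It was also among the scarcer tiles, with 26925 Input reads in all. Of its 35 barcodes, 27 were higher and 14 were higher without overlap of the libraries, while none was lower without overlap. Over the barcodes of all tiles but ctrl_1 these shares were 6.57% higher and 5.93% lower without overlap. Its barcodes' log2 ratios had a median of 0.46 and an SD of 0.42. The odd-numbered barcodes gave 0.34 ± 0.07 and the even-numbered ones 0.47 ± 0.09 (SE), and both passed (edgeR adjusted p = 8.97e-05 and 4.35e-06).

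Both tiles next to single_16 in number lay near 0: single_15 was at 0.04 ± 0.04 and single_17 at 0.04 ± 0.04 (log2 fold change, SE). The window of 5 tiles with the highest mean, single 14 to 18, reached 0.10 (SE 0.02 from the spread over libraries) and held no call other than single_16. The lowest window, single 10 to 14, was at -0.02 (SE 0.02). The gain at single_16 was thus that of 1 tile and not of a run of numbers.

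The tiles single_1 and single_12 fell by small amounts under TMM scaling (by library size alone they were at 0.098 and 0.11). The first, single_1, was at 22090, 22032 and 23340 CPM in Input and at 19900, 21544 and 20524 CPM in the immunoprecipitate, a log2 fold change of -0.12 ± 0.05 (edgeR adjusted p = 0.0368). The second, single_12, was at 13521, 13718 and 13367 CPM in Input and at 12730, 12119 and 12793 CPM in the immunoprecipitate, a log2 fold change of -0.11 ± 0.04 (edgeR adjusted p = 0.0460). In both tiles the groups did not overlap, but the gap between the nearest libraries was small. Of the 35 barcodes of each, 9 were higher for single_1 and 14 for single_12. The call of single_1 was lost without any 1 library other than immunoprecipitate replicate 2 (adjusted p up to 0.323 in edgeR), and that of single_12 without any 1 of the 6 (up to 0.334).

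Among single tiles that did not pass, the highest were single_3 (log2 fold change 0.12 ± 0.06) and single_9 (0.08 ± 0.04), and the lowest was single_7 (-0.10 ± 0.06). The libraries of single_3 and single_9 did not overlap between fractions, whereas those of single_7 did. For single_7, 8 of 34 barcodes were higher, a smaller count than for either single tile that fell.

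In the stem class 4 tiles rose, 4 fell and 25 did not pass, a share of 24.2% against 21.8% of the pool. The class median was -0.0011, and its log2 fold changes had an SD of 0.10 across tiles, against 0.11 in the single class.

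The tile stem_29 was the most enriched of the stem class. It was at 12056, 11690 and 12070 CPM in Input and at 14015, 14931 and 14248 CPM in the immunoprecipitate. Here too all precipitate libraries lay above all Input libraries, with a log2 fold change of 0.27 ± 0.04, or 1.21-fold (edgeR adjusted p = 1.06e-08). Its odd-numbered barcodes gave 0.28 ± 0.06 and its even-numbered ones 0.26 ± 0.06. Of 35 barcodes, 29 were higher, 7 were higher without overlap (6.57% of barcodes in the pool without ctrl_1) and 0 were lower without overlap (5.93%).

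The tile stem_21, the most abundant after ctrl_1, rose by less but with the smallest SE of the pool. It was at 33695, 34254 and 32861 CPM in Input and at 37399, 37048 and 37937 CPM in the immunoprecipitate. The groups were well apart, and the log2 fold change was 0.16 ± 0.02, or 1.11-fold (edgeR adjusted p = 1.10e-09). Its odd-numbered barcodes gave 0.14 ± 0.03 and its even-numbered ones 0.18 ± 0.05, and 29 of its 35 barcodes were higher.

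The neighbouring tiles stem_11 and stem_12 also rose. The first was at 10392, 10493 and 10245 CPM in Input and at 10823, 11684 and 11593 CPM in the immunoprecipitate (log2 fold change 0.13 ± 0.05, edgeR adjusted p = 0.0368). The second was at 10531, 9944 and 10846 CPM in Input and at 11509, 11578 and 11692 CPM in the immunoprecipitate (0.15 ± 0.05, edgeR adjusted p = 0.0133). Neither tile overlapped between groups. The odd-numbered barcodes of stem_11 gave 0.26 ± 0.07 and the even-numbered ones 0.01 ± 0.07, a difference that was not tested. For stem_12 both sets were positive, at 0.16 ± 0.06 and 0.14 ± 0.08. The call of stem_11 was lost without Input replicate 1 (edgeR adjusted p = 0.0578), immunoprecipitate replicate 2 (0.0692) or immunoprecipitate replicate 3 (0.0813), and that of stem_12 without Input replicate 2 (0.0576).

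The 4 stem tiles that fell were stem_16, stem_25, stem_26 and stem_22, at 0.893 to 0.915 times Input under TMM scaling (by library size alone they had log2 fold changes of 0.059 to 0.094). The lowest, stem_16, was at 10797, 10659 and 10425 CPM in Input and at 8998, 9991 and 9486 CPM in the immunoprecipitate (log2 fold change -0.16 ± 0.05, edgeR adjusted p = 0.0133). Its neighbours in rank, stem_25 (-0.15 ± 0.05) and stem_26 (-0.14 ± 0.04), are consecutive in number, and the fractions did not overlap in either. In stem_22 (-0.13 ± 0.04) the highest precipitate library, at 14377 CPM, lay just above the lowest Input library, at 14373 CPM. The differences among these 4 tiles were smaller than their SEs.

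Between 9 and 11 of 35 barcodes were higher in each of the 4 falling stem tiles. The odd-numbered and even-numbered barcodes gave -0.17 ± 0.06 and -0.14 ± 0.08 for stem_16, and -0.17 ± 0.06 and -0.10 ± 0.06 for stem_26. For stem_22 they gave -0.03 ± 0.06 and -0.22 ± 0.06, and for stem_25 -0.08 ± 0.08 and -0.19 ± 0.08. The differences between these sets were not tested. All 4 calls were lost without Input replicate 1 and also without Input replicate 2. Leaving out immunoprecipitate replicate 1 ended those of stem_16, stem_22 and stem_26, leaving out immunoprecipitate replicate 2 that of stem_25, leaving out immunoprecipitate replicate 3 those of stem_22, stem_25 and stem_26, and leaving out Input replicate 3 that of stem_26. The largest adjusted p of these fits in edgeR was 0.239.

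Of the stem tiles that did not pass, stem_18 was the highest (log2 fold change 0.16 ± 0.07, edgeR adjusted p = 0.0643) and lay above stem_21 by value. It was at 7218, 7143 and 7430 CPM in Input and at 8832, 7755 and 7774 CPM in the immunoprecipitate. No library overlapped, but immunoprecipitate replicate 1 stood above the other precipitates. The scarcest tile, stem_9, was at -0.13 ± 0.10, with the largest SE among single and stem tiles, and did not pass.

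Along the stem numbers, the window with the highest mean was stem 27 to 31 (0.09, SE 0.02 from the spread over libraries), where 4 of 5 tiles were positive and 1, stem_29, passed. The lowest was stem 5 to 9 (-0.08, SE 0.04), where all 5 tiles were negative and 0 passed. The correlation between consecutive numbers was 0.12 in the stem class and 0.05 in the single class, so values next to each other in number were little more alike than others. Over the 53 single and stem tiles the Spearman correlation of log2 fold change with Input reads was 0.06. These correlations describe tiles that share the same 6 libraries.

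A direct comparison with wt_1 removes the scaling between libraries. Within each library the log2 CPM of wt_1 was subtracted from that of each of the other 54 tiles, and limma, with a trended and robust variance, tested the differences between immunoprecipitate and Input. With Benjamini-Hochberg adjustment 10 tiles differed from wt_1 (18.5%), 3 recovered better (5.56%) and 7 less well (13%). The gains were those of single_16 (0.36 ± 0.07 on the log2 scale, adjusted p = 4.47e-06 in limma), stem_29 (0.24 ± 0.05, adjusted p = 3.37e-05) and stem_21 (0.13 ± 0.02, adjusted p = 2.06e-08). The difference for ctrl_1 was -1.12 ± 0.17 (adjusted p = 1.33e-08 in limma).

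The values behind the largest gain show it in each library. The log2 CPM of single_16 was below that of wt_1 by -1.39, -1.28 and -1.39 in Input and by -1.05, -0.94 and -0.99 in the immunoprecipitate. For stem_29 the differences were -0.58, -0.62 and -0.56 in Input and -0.37, -0.27 and -0.39 in the immunoprecipitate. For stem_21, which is more abundant than wt_1, they were 0.90, 0.93 and 0.89 against 1.05, 1.04 and 1.02. In all 3 tiles every precipitate library lay above every Input library.

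The 6 altered tiles recovered less well than wt_1 were the same ones that fell against the pool: stem_16 (-0.19 ± 0.06), stem_25 (-0.18 ± 0.06), stem_26 (-0.17 ± 0.05), stem_22 (-0.16 ± 0.05), single_1 (-0.15 ± 0.05) and single_12 (-0.14 ± 0.05). Their adjusted p in limma ran from 0.00914 to 0.0394. Both comparisons use the same 6 libraries, and wt_1 lay near the pool median (log2 fold change 0.03 against 0.01). The overlap of the lists is therefore not separate support. All 6 calls against wt_1 were lost without Input replicate 1. Those of single_12, stem_22 and stem_25 were also lost without Input replicate 2, and those of single_1, single_12, stem_25 and stem_26 without Input replicate 3. Without immunoprecipitate replicate 1 all but that of stem_25 were lost, and without immunoprecipitate replicate 3 all but that of stem_16 (adjusted p up to 0.227 in limma over these fits). The calls of the 3 gains stood in each of these 6 fits. The tiles stem_11 (0.10 ± 0.05) and stem_12 (0.13 ± 0.05) did not pass against wt_1 (adjusted p = 0.200 and 0.0996 in limma). Of the 53 single and stem tiles, 32 were below wt_1 and 21 above, with a median of -0.02. Because wt_1 is 1 tile, its own error enters all of these differences. With the odd-numbered barcodes 5 tiles were higher and 1 lower, and with the even-numbered ones 1 was higher and 14 were lower. In the even-numbered set the gains of stem_21 (adjusted p = 0.292 in limma) and stem_29 (0.0592) over wt_1 no longer passed.

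The barcodes of a tile are separate tags on 1 design, read in the same libraries. Leaving out ctrl_1, 1888 barcodes had at least 30 reads over the 6 libraries, of which 948 were higher in the immunoprecipitate and 940 lower. The libraries did not overlap in 124 barcodes that were higher (6.57%) and in 112 that were lower (5.93%). Their log2 ratios had an SD of 0.31 between single barcodes. With 1 edgeR test per barcode, 37 of 1920 passed (1.93%), 1 higher (0.0521%) and 36 lower (1.88%), and 35 of the lower ones were those of ctrl_1. Between odd-numbered and even-numbered barcodes the tile values, without ctrl_1, had a Pearson correlation of 0.60 and a Spearman correlation of 0.48 over 54 tiles that share libraries. The median difference between both sets was 0.07 on the log2 scale and the largest was 0.29. In the odd-numbered set 8 of 55 tiles passed (14.5%) and in the even-numbered set 7 (12.7%), and 4 passed in both with the same direction: ctrl_1, single_16, stem_29 and stem_21.

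The same 4 tiles kept their call in edgeR without each of the 6 libraries in turn. Over those fits the log2 fold change ran from -1.21 to -0.96 for ctrl_1, from 0.37 to 0.45 for single_16, from 0.24 to 0.30 for stem_29 and from 0.15 to 0.19 for stem_21. The count of calls in the whole pool was less even: it was 5, 6 and 11 without Input replicate 1, 2 and 3, and 8, 10 and 6 without immunoprecipitate replicate 1, 2 and 3. Scaling by library size alone, which leaves the share taken by ctrl_1 in the totals, moved the median by 0.22 and gave 45 tiles higher and 1 lower.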

How the data were processed

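Amplicon libraries of 3 Input and 3 immunoprecipitate samples were analysed. The authors deposited raw read counts per tile and barcode, per the file headers; all values were whole numbers. How reads were assigned to tiles, and whether molecular identifiers were used, is not given in the sources used here. Column names identified the samples, with 0 columns left unmatched. Library depth was 1216203 to 1510200 reads, and none of the 6 library pairs within a fraction agreed within sampling noise (chi-square per degree of freedom 38.7 to 324).

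Counts were summed over 35 barcodes per tile, filtered with filterByExpr (all 55 tiles passed), scaled with TMM and tested with the robust quasi-likelihood test of edgeR 4.0.16 in R 4.3.3. Differences from wt_1 used log2 CPM (prior count 2) and limma 3.58.1. The SE of an edgeR value was obtained from its F statistic. Scripts were tested on simulated counts. Barcode ratios needed 30 reads.

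Tiles named are ctrl_1, wt_1, all calls, the 3 highest and 3 lowest of each class, the extremes by reads and by barcodes higher, and up to 3 per direction against wt_1. Number neighbours of single_16 and single barcodes were added after their values were seen. The tiles and lists were chosen with earlier results of these data known. Alternatives were other scalings and filters, DESeq2 1.42.0, the replicate block, subsets of barcodes, prior counts and each library left out.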

Additional observations from a re-analysis of the deposited data

How the results depend on the processing

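The 12 calls stayed within 1.5 times under RLE size factors (12), the single and stem library size (11), keeping every tile (12), keeping tiles with a mean count of 50 or more (12), DESeq2 (14), leaving out ctrl_1 (10), odd-numbered barcodes (8), dropping the most-read barcode of every tile (9), and leaving out Input replicate 3 (11) or immunoprecipitate replicate 1 (8) or 2 (10). By library size alone 46 tiles passed, 45 higher and 1 lower, and these turned positive without passing: single_1 (0.098), single_12 (0.11), stem_16 (0.059), stem_22 (0.094), stem_25 (0.074), stem_26 (0.082), single_7 (0.12) and stem_9 (0.098). Even-numbered barcodes gave 7 calls, of which 5 were among the 12. Of the 7 tiles called lower, the number fell to 3 with odd-numbered barcodes and 2 with even-numbered ones. It was 4 when the most-read barcode of every tile was dropped. In each of these settings 5 tiles were called higher, but not always the same ones. With even-numbered barcodes stem_30 and stem_31 passed (edgeR adjusted p = 0.0184 and 0.0441), while stem_11 (0.879) and stem_12 (0.276) did not. With odd-numbered barcodes wt_1 was at -0.042 against Input, and stem_22 at 0.011 relative to wt_1. With 1 test per barcode 37 passed, 1 higher and 36 lower, 35 of them of ctrl_1. Leaving out 1 library gave 5 to 11 calls, 4 to 7 higher and 1 to 5 lower.

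Against wt_1, the 10 calls (3 higher, 7 lower) became 6 with odd-numbered barcodes (5 higher, 1 lower) and 15 with even-numbered ones (1 higher, 14 lower), where stem_21 (adjusted p = 0.292 in limma) and stem_29 (0.0592) no longer passed. Leaving out 1 library gave 4 to 17 calls, 3 higher each time and 1 to 14 lower: 4 without Input replicate 1, 6 without Input replicate 3, 5 without immunoprecipitate replicate 1 or 3, and 17 without immunoprecipitate replicate 2. The cause was not tested. Prior counts of 0.5 and 10 and edgeR with wt_1 as offset gave 10 calls each. The difference in the share of ctrl_1 was -14.7 to -11.2 percentage points over the fits without 1 library.

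Under the replicate block 4 tiles passed in edgeR (3 higher, 1 lower): ctrl_1, single_16, stem_29 and stem_21. The other 8 calls had an adjusted p of 0.0580 to 0.177. Against wt_1, 8 passed. Same-numbered libraries had correlated deviations of 0.23, 0.25 and 0.02. Input replicate 3 correlated better with immunoprecipitate replicate 1 (0.16), while every other library correlated best with its own number. These correlations do not settle whether the numbers pair the libraries, and the labels do not say so. The fit without the block was kept as the main one. The sign-flip test for the ctrl_1 share with the replicate block gave p = 0.25, the smallest it can give (exact permutation). Precision differed between tiles: among single and stem tiles the SE ran from 0.022 for stem_21 to 0.096 for stem_9, so a difference that passed in one tile could miss the threshold in another.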

Other observations

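The edgeR test per barcode compared immunoprecipitate with Input. Whether a barcode differed from the rest of its tile was not tested. Besides those of ctrl_1, the test called 1 barcode of stem_18 higher (adjusted p = 0.0186 in edgeR) and 1 of single_2 lower (0.0491). Among 37 calls from 1920 barcodes at an adjusted p under 0.05, a few may be false. Barcode 24 of stem_18 had 123, 142 and 182 reads in Input and 307, 404 and 431 in the immunoprecipitate, a log2 ratio of 1.26, while the median over the barcodes of stem_18 was 0.12. Barcode 35 of single_2 had 590, 449 and 598 reads in Input and 309, 298 and 302 in the immunoprecipitate, a log2 ratio of -0.92. In the same tile barcode 11 had 9, 16 and 12 reads in Input and 50, 109 and 3 in the immunoprecipitate, a log2 ratio of 2.07 that rested on few reads and differed between the precipitates. The tile single_2 as a whole was at 0.02 ± 0.06 (log2 fold change, SE). No barcode of single_16, stem_29 or stem_21 passed by itself. These barcodes were chosen after their values were seen.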
